A study of Citrus x clementina and Citrus japonica with 6 samples.

Results

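The gene models described here carry the names of the enzymes that make and cleave carotenoids, in fruit of kumquat (Fortunella japonica) and of Clementine mandarin (Citrus x clementina). A model was taken when its first KEGG orthology name in the deposited table was that of a carotenoid enzyme, from phytoene synthase through the desaturases, isomerases, cyclases, hydroxylases and epoxidases to the cleavage dioxygenases. This choice used no measured value. It gave 71 of the 30139 gene models, under 16 KEGG names, and none was named for neoxanthin synthesis.

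Messenger RNA was measured by RNA-seq in 6 libraries of field-grown, untreated fruit, 3 from each species, and in every library 5 stages were pooled. Fruit of both species was picked 15, 30 and 45 days from flowering. The later picks were at 100 and 180 days for clementine but 80 and 120 days for kumquat, so effects of species and of age cannot be told apart. The stage label of the kumquat libraries names Clementine mandarin, and their cultivar label names kumquat. Material came from 3 plants, but no library is tied to a plant, so the p-values measure only the spread between these libraries, which may be technical.

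Carotenoids are made in plastids from geranylgeranyl diphosphate, which phytoene synthase joins into colourless phytoene. Desaturases and isomerases turn phytoene into red lycopene, cyclases close its ends to give carotenes, and hydroxylases and epoxidases turn these into the yellow and orange xanthophylls. Xanthophylls colour the peel and pulp of citrus fruit, and cleavage dioxygenases break carotenoids into aroma compounds, pigments and the precursors of hormones such as abscisic acid.

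Values are FPKM (fragments corrected for the length of the model and the size of the library), so levels of different models can be set side by side. FPKM summed to between 691560 and 707892 per library. Models above 0 numbered 26050 to 26285 in the clementine libraries and 25523 to 25807 in the kumquat libraries. Total depth is unknown. Steps between low values put the relative depth at 0.966, 1 and 0.993 in the clementine libraries and at 0.877, 0.914 and 0.914 in the kumquat libraries. Every kumquat library was thus lower, so depth and species cannot be told apart. Correlation across gene models, which are not independent replicates, gave r = 0.969 to 0.979 for libraries of the same species and 0.81 to 0.816 for libraries of different species, on log2(FPKM + 1). The identifiers are those of clementine models, so a species difference in how reads were assigned to them cannot be told apart from a difference in level.

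The names were checked against the other annotations of the same rows. Of the 71 models, 56 carried 1 KEGG name. The other 15 were all named beta-ring hydroxylase first and protein N-terminal methyltransferase as a further name, which 29 rows outside the 71 also carried. One of these 15, Ciclev10012262m, had an F-box protein as its protein match. Of 10 models named zeaxanthin epoxidase, 2 had the GO term abscisic acid metabolic process and 8 did not. For 5 of those 8 a RefSeq gene was found by protein accession (assembly Citrus_clementina_v1.0), and these 5 lay within a run of 14 consecutive RefSeq genes. The 15 and the 8 are called doubtful below, 23 models in all, and the 48 others are called the better-annotated set. This split was made after the values were seen, and the GO term was asked of the zeaxanthin epoxidase name alone. Protein matches played no part in it. The zeta-carotene desaturase model Ciclev10002975m, matched to a tesmin/TSO1-like CXC protein, therefore stayed among the 48. A carotenoid or abscisic acid GO term was carried by 13 of the 71 models, so most of the 48 lack one too. Of the 5 phytoene synthase models, 0 carried it. The protein match of 60 models was a hypothetical protein, so an enzyme name is the closest family and not a measured activity. The 71 models held 58 locus names, and 12 models shared a protein match with another of the 71, among which reads may have been split.

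Carotenoid models went both ways between the species, and most calls were of changes under 2-fold on the log2(FPKM + 1) scale. That scale understates the folds of low models. Of the 71 models, 51 reached 1 FPKM in at least 3 libraries and were tested with limma on log2(FPKM + 1). At a Benjamini-Hochberg adjusted p under 0.05, 18 were higher in kumquat, 19 were lower and 14 were not called. The 37 called made up 72.5% of those tested, beside 57.1% of all 22050 tested models, where 29.9% were higher and 27.1% lower. Of these calls, 7 (1 higher, 6 lower) were of models that passed the filter on low values only through the species where they were high, so they had to differ. The other 44 tested models gave 17 higher and 13 lower. Without clementine replicate 1, 2 or 3, the 19 lower became 12, 11 and 11. Requiring also a 2-fold difference on the log2(FPKM + 1) scale, 6 stood higher and 10 lower. They made up 31.4% of those tested, beside 24.5% of all tested models (12.4% higher and 12.1% lower). Models that passed through 1 species alone supplied 1 of these 6 and 5 of these 10. The median log2 change was -0.08, beside 0.04 over all tested models, and the median size of a change was 0.58 beside 0.50. In bulk fruit, fewer cells of a type and less RNA per cell cannot be told apart.

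**Figure D1:**
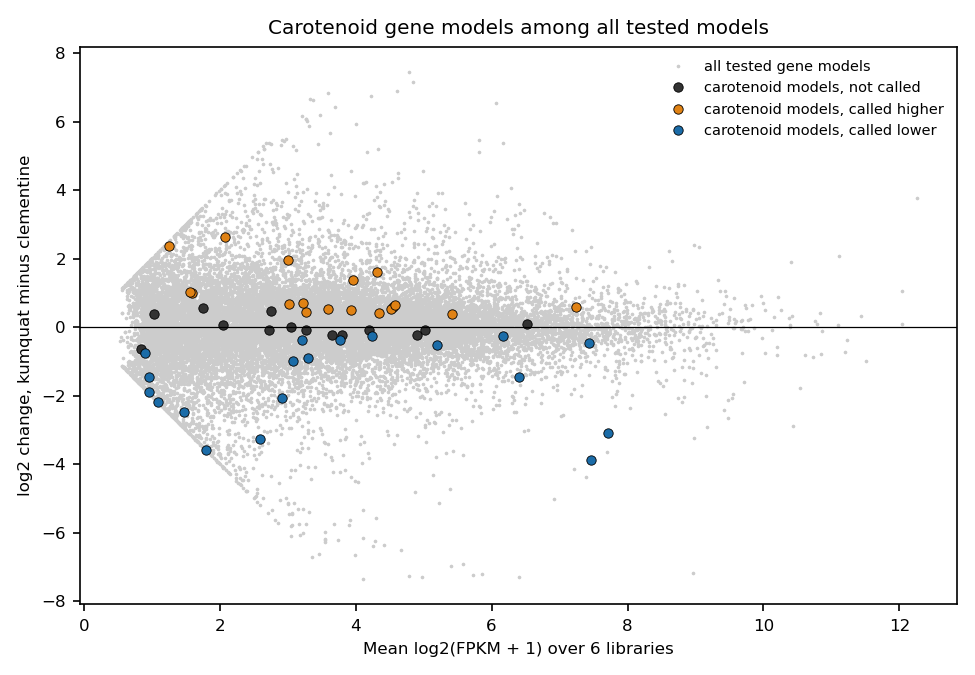
Log2 change between species (kumquat minus clementine, y axis) against mean log2(FPKM + 1) over the 6 libraries (x axis) for all 22050 tested gene models (grey) and the 51 tested carotenoid models (orange called higher, blue called lower, black not called). Most carotenoid models lie within the grey cloud near 0, and a pair of abundant zeaxanthin epoxidase models stands apart at -3.90 and -3.08.

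The 20 models that were not tested reached at most 2.91 FPKM in any library, and 11 of them were named beta-ring hydroxylase. The 7 models that passed through 1 species alone did so 6 times through clementine and once through kumquat; over all tested models the share of such models was 7.99%. A level of 0 can be a failed estimate in such a table, so a model at 0 in every library of a species is said to be listed at 0 and is given no fold. There were 3 tested carotenoid models listed at 0 in all kumquat libraries (1.41% of all tested models) and 0 listed at 0 in all clementine libraries (0.649%). Relative depth was lower in every kumquat library, and its part in these counts was not tested.

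Summed over the 71 models, the level was 2329, 2436 and 2482 FPKM in the clementine libraries and 1166, 1205 and 1187 in the kumquat libraries. The clementine sum was 2.04 times the kumquat sum, and the libraries of the species did not overlap. By the split made after the values were seen, this difference lay in the doubtful models. These include 8 of the 10 models of zeaxanthin epoxidase, which summed to 1584 FPKM in clementine and 349 in kumquat. The balance of the other models follows in part from that choice and is no test of the annotation. The 23 doubtful models together held 1611 ± 75.1 FPKM in clementine, against 348 ± 19.5 for kumquat (mean ± SD over 3 libraries, n = 3, here and below). The 48 better-annotated models held 804 ± 5.61 FPKM in clementine and 838 ± 1.13 in kumquat, a ratio of 1.04. Of these 48, 37 were tested, 14 were higher, 11 lower and 12 not called, with a median log2 change of -0.01.

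Marker lists of other tissues were read in the same libraries, and their part in these results was not tested. Over all tested models, 29.9% were higher and 27.1% lower. The green tissue list, 30 light-harvesting models, summed to 7101 to 7706 FPKM in clementine and 6459 to 7093 in kumquat, with 3 of 23 tested models higher and 11 lower. The seed list had only 3 models, a vicilin-like storage protein and a pair of models of late embryogenesis abundant protein Lea5, a protein known also outside seeds. All 3 were higher, at 644 to 808 FPKM in clementine and 2468 to 2971 in kumquat. A list of 5 models matched to plastid-lipid-associated proteins, a family found in chromoplasts and chloroplasts, stood at 2.38 to 5.70 and 2.08 to 5.03 FPKM, with 1 model tested and 0 called. In each of the 3 lists, 0 models were listed at 0 in every library.

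The steps from phytoene synthase to lycopene stood slightly higher in kumquat as a group. Their 26 models summed to 231 ± 2.95 FPKM in clementine and 295 ± 2.30 in kumquat, 1.28 times the clementine level. Of 21 tested, 11 were higher, 4 lower and 6 not called, with a median log2 change of 0.47. The called share was 71.4%, beside 57.1% of all tested models (29.9% higher, 27.1% lower), and 2 of the 4 lower had passed the filter through clementine alone. By comparison, the 38 models that act on lycopene and its products, cleavage aside, had 26 tested, a called share of 73.1%. Of these, 6 were higher and 13 lower, with a median of -0.33. Of the 6 higher 1, and of the 13 lower 4, had passed the filter only through the species where they were high. All 23 doubtful models are among these 38. The 15 better-annotated ones had 12 tested, 2 higher, 5 lower and 5 not called, with a median of -0.16. They summed to 423 ± 13.1 FPKM in clementine and 343 ± 11.7 in kumquat. Among their 5 lower was Ciclev10011330m, which had passed the filter through clementine alone. The difference between these groups of steps was not tested.

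**Figure D2:**
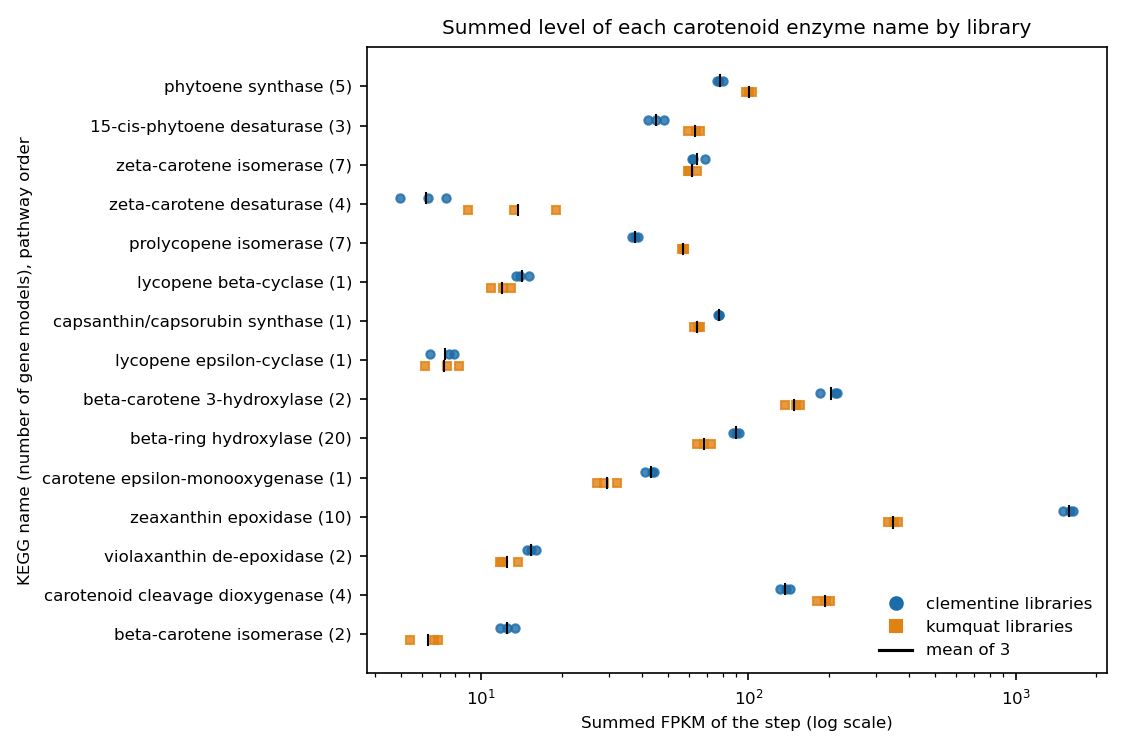
Summed FPKM of all models under each KEGG name (log x axis; number of models in brackets) in each clementine library (circles) and kumquat library (squares), with the mean of 3 as a bar; the dioxygenase near 0 is not drawn. Phytoene synthase stands at 78.1 in clementine and 100.5 in kumquat, and zeaxanthin epoxidase at 1584 and 349.

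Phytoene synthase makes the first carotenoid, phytoene, and is widely regarded as the step that limits entry into the pathway. Its most abundant model, Ciclev10015582m, stood at 34.4, 34.6 and 40.6 FPKM in clementine and at 48.8, 48.2 and 47.6 in kumquat. All kumquat libraries lay above all clementine libraries, and the level was 1.32 times the clementine level (log2 change 0.40, SE 0.0772, limma adjusted p = 0.00348). The other 4 phytoene synthase models share 1 protein match. Of these, Ciclev10011750m stood at 9.90, 7.81 and 8.41 FPKM in clementine and at 30.8, 23.5 and 19.3 in kumquat, again without overlap (log2 change 1.38, SE 0.172, limma adjusted p = 3.71e-04). Ciclev10011751m, at 31.4 ± 2.70 and 27.0 ± 4.23 FPKM, overlapped between species and was not called (log2 change -0.22, 95% interval -0.51 to 0.07). Because reads may be split among these copies, their sum is the safer value. It was 41.6 ± 1.75 FPKM in clementine and 52.2 ± 1.91 in kumquat, 1.26 times as high, and in the fit with models of 1 match summed it was called higher (log2 change 0.32, limma adjusted p = 0.00202). Over all 5 models, phytoene synthase stood at 76.0 to 80.5 FPKM in clementine and 97.8 to 103 in kumquat, with no overlap.

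Phytoene desaturase introduces the first double bonds into phytoene. Ciclev10005632m stood at 19.6, 16.5 and 18.2 FPKM in clementine and at 31.9, 28.1 and 23.6 in kumquat, with every kumquat library above every clementine library (log2 change 0.59, SE 0.122, limma adjusted p = 0.00446). Ciclev10007114m, which has the same protein match, rose likewise from 18.0 ± 0.626 to 26.7 ± 3.06 FPKM (limma adjusted p = 0.00224). Together they summed to 36.1 ± 1.57 and 54.6 ± 4.18 FPKM, 1.51 times as high in kumquat. A further model of another locus, Ciclev10028457m, was not called at 9.04 ± 2.03 and 8.42 ± 0.833 FPKM.

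Zeta-carotene isomerase changes the shape of the product of phytoene desaturase by turning a double bond. Its 7 models summed to 64.1 ± 4.15 FPKM in clementine and 61.2 ± 2.57 in kumquat, a difference smaller than the spread between clementine libraries. The most abundant model, Ciclev10020648m, stood at 20.7, 19.9 and 18.6 FPKM in clementine and 17.3, 14.7 and 16.8 in kumquat. The groups did not overlap, and the model was called lower by a narrow margin (log2 change -0.26, limma adjusted p = 0.0409). The call was lost without a mean-dependent prior variance (limma adjusted p = 0.0582) and without any of clementine replicates 1, 2 and 3 or kumquat replicates 2 and 3 (0.0573 to 0.130). Another model, Ciclev10005493m, was called higher at 7.36 ± 1.39 and 10.2 ± 0.996 FPKM (limma adjusted p = 0.0429). It shares its locus name with a pair of low models, and summed over the 3 the libraries overlapped at 9.19 ± 1.05 and 10.3 ± 0.887 FPKM, with no call (log2 change 0.16, limma adjusted p = 0.266). The 3 other tested models were not called.

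Zeta-carotene desaturase adds the next double bonds on the way to lycopene. Its models were low in both fruits. Ciclev10003502m, whose protein match is a zeta-carotene desaturase too, stood at 0, 0.85 and 1.66 FPKM in clementine and at 6.28, 9.43 and 14.2 in kumquat. The species did not overlap, and the kumquat mean was 11.9 times the clementine mean (log2 change 2.63, SE 0.405, limma adjusted p = 0.00109). The clementine mean of 0.837 ± 0.830 is close to 0, so the fold is imprecise. Ciclev10002975m, whose match is a tesmin/TSO1-like CXC protein, had 3.59 ± 0.942 FPKM in clementine and was listed at 0 in kumquat. It had passed the filter through clementine alone, so it had to differ. Ciclev10002974m has the same match, so reads may have been split between them. That model was listed at 0 in clementine, had 0.643 ± 0.272 FPKM in kumquat and was not tested. Over its 4 models the step stood at 4.98 to 7.39 FPKM in clementine and 8.92 to 19.1 in kumquat.

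Prolycopene isomerase, known as CRTISO, turns the bent prolycopene into straight lycopene. All 7 of its models were called, 5 higher and 2 lower in kumquat, beside 57.1% called of all tested models (29.9% higher, 27.1% lower). Of the 2 lower, Ciclev10002476m had passed the filter through clementine alone, so it had to differ. Ciclev10025284m changed most among the abundant ones, from 2.35, 3.57 and 3.49 FPKM in clementine to 14.1, 15.9 and 14.5 in kumquat. No libraries overlapped, and the level was 4.72 times the clementine level (log2 change 1.95, SE 0.157, limma adjusted p = 3.92e-05). The most abundant model in clementine, Ciclev10011230m, went the other way, from 13.7, 14.9 and 15.2 FPKM to 11.8, 10.3 and 10.9 (log2 change -0.38, limma adjusted p = 0.0116). It shares its locus name with Ciclev10011361m, which rose from 1.09 ± 0.322 to 3.19 ± 0.479 FPKM, and with this pair summed there was no call (log2 change -0.14, limma adjusted p = 0.236). Summed over the 7 models, prolycopene isomerase stood at 36.6, 37.7 and 38.7 FPKM in clementine and at 57.6, 56.3 and 57.2 in kumquat, 1.51 times as high. Its makeup also differed. Ciclev10011230m held 38.7% of the sum in clementine and 19.2% in kumquat, and Ciclev10025284m held 8.30% and 26.0%.

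Lycopene is the branch point of the pathway, and of its 3 cyclase-family models 1 was called. Lycopene beta-cyclase, which closes both ends of lycopene to give beta-carotene, had 1 model, Ciclev10004730m, at 13.5, 15.1 and 13.9 FPKM in clementine and 12.9, 12.04 and 10.9 in kumquat. The groups did not overlap, but the model was not called (log2 change -0.23, 95% interval -0.47 to 0.01, limma adjusted p = 0.0880). Lycopene epsilon-cyclase, which opens the branch to alpha-carotene and lutein, had 1 model, Ciclev10008410m, at 6.42, 7.93 and 7.54 FPKM in clementine and 7.43, 6.13 and 8.26 in kumquat. Its groups overlapped throughout (log2 change -0.01, 95% interval -0.35 to 0.34, limma adjusted p = 0.968), so a change smaller than these bounds could not have been shown.

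The model named capsanthin/capsorubin synthase, Ciclev10028245m, was the most abundant of the cyclase family. In pepper that enzyme makes red ketocarotenoids and is a close relative of lycopene beta-cyclase. The model stood at 77.2, 77.7 and 77.4 FPKM in clementine and at 62.3, 65.7 and 64.8 in kumquat. The clementine libraries were almost equal and all lay above the kumquat libraries, with a clementine level 1.21 times that of kumquat (log2 change -0.27, SE 0.0491, limma adjusted p = 0.00267).

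Hydroxylases of the carotene rings, which produce the xanthophylls, went both ways, and the most abundant was lower in kumquat. Beta-carotene 3-hydroxylase, which turns beta-carotene into beta-cryptoxanthin and zeaxanthin, was the most abundant of the better-annotated models in clementine. Ciclev10005481m stood at 185, 210.3 and 214 FPKM in clementine and at 134, 150.2 and 155 in kumquat. The groups did not overlap, and the clementine level was 1.38 times that of kumquat (log2 change -0.47, SE 0.0792, limma adjusted p = 0.00178). Ciclev10022121m, the other model of the name, had 0.833 ± 0.539 and 1.47 ± 1.02 FPKM and was not called. Carotene epsilon-monooxygenase is a cytochrome P450 that hydroxylates the other ring type on the way to lutein. Its 1 model, Ciclev10011420m, stood at 44.4, 41.0 and 43.6 FPKM in clementine and 32.3, 27.1 and 28.9 in kumquat. It fell without overlap, by 0.54 on the log2 scale (SE 0.0797, limma adjusted p = 9.06e-04).

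Beta-ring hydroxylase, the name of cytochrome P450 enzymes of the same reaction, was carried by 20 models, of which 9 were tested, 4 higher and 5 lower. All 9 were thus called, beside 57.1% of all tested models (29.9% higher, 27.1% lower). Of the 9, however, 1 of the 4 higher and 3 of the 5 lower had passed the filter only through the species where they were high. The 5 models with no further KEGG name summed to 30.0 ± 1.25 FPKM in clementine and 38.6 ± 1.35 in kumquat. Most of this was Ciclev10011312m, at 17.8, 17.3 and 19.1 FPKM in clementine and 29.6, 27.5 and 29.7 in kumquat. It rose without overlap to 1.60 times the clementine level (log2 change 0.65, SE 0.0751, limma adjusted p = 2.49e-04). Ciclev10011330m of the same locus name moved in the opposite direction, from 5.67 ± 1.29 to 0.2 ± 0.346 FPKM. With the 3 models of that locus summed, the level was 23.9 ± 0.911 and 29.1 ± 1.44 FPKM and still called higher (log2 change 0.27, limma adjusted p = 0.00866). Ciclev10011353m, matched to cytochrome P450 97B2, was also higher at 5.46 ± 0.868 and 9.37 ± 1.31 FPKM.

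The 15 beta-ring hydroxylase models that also carried the methyltransferase name summed to 59.8 ± 2.56 FPKM in clementine and 29.7 ± 3.52 in kumquat. Of 6 tested, 2 were higher and 4 lower, beside 29.9% higher and 27.1% lower over all tested models. Of the 2 higher 1, and of the 4 lower 2, had passed the filter through the high species alone. Ciclev10002074m stood at 18.0, 17.5 and 17.9 FPKM in clementine and at 0.28, 1.21 and 1.61 in kumquat, 17.2 times lower (log2 change -3.27, SE 0.261, limma adjusted p = 3.73e-05). Ciclev10005650m stood at 13.8, 12.6 and 17.1 and at 2.20, 3.15 and 2.80 FPKM (log2 change -2.06, limma adjusted p = 3.86e-05). Ciclev10013632m had 9.59, 11 and 12.7 FPKM in clementine and was listed at 0 in the 3 kumquat libraries. Ciclev10002074m and Ciclev10005650m did not overlap between species. Ciclev10013632m had passed the filter through clementine alone, so it had to differ. Which of the names of these 3 models applies was not tested.

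Zeaxanthin epoxidase adds oxygen to the rings of zeaxanthin to give violaxanthin, and violaxanthin de-epoxidase reverses this in strong light. The models of this name are given in 2 groups, with and without the abscisic acid term. The tested model with the abscisic acid term, Ciclev10025089m, stood at 34.5, 31.6 and 30.9 FPKM in clementine and at 29.8, 29.0 and 32.8 in kumquat. Its libraries overlapped and it was not called (log2 change -0.08, 95% interval -0.26 to 0.10, limma adjusted p = 0.401). The other model with that term, Ciclev10027323m, was near 0 in both fruits, at 0.02 ± 0.0346 and 0.0233 ± 0.0404 FPKM.

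The 8 models without the term summed to 1552 ± 73.3 FPKM in clementine and 319 ± 16.8 in kumquat, a clementine level 4.87 times as high. Among them were the 4 most abundant models of the name in clementine. Ciclev10008384m stood at 575, 631 and 627 FPKM in clementine and at 66.5, 74.4 and 72.6 in kumquat, a clementine level 8.59 times that of kumquat (log2 change -3.08, SE 0.0636, limma adjusted p = 1.22e-07). Ciclev10008369m stood at 643, 685 and 717 FPKM and at 42.5, 46.9 and 45.1, a clementine level 15.2 times as high (log2 change -3.90, limma adjusted p = 4.71e-08). In both models the gap between species was many times the spread within either. Ciclev10008398m was lower as well, at 135, 134 and 151 FPKM in clementine and 57.0, 53.5 and 41.3 in kumquat (log2 change -1.46, SE 0.120, limma adjusted p = 4.28e-05).

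Not all of the 8 fell. Ciclev10008396m overlapped between species at 88.2 ± 0.795 and 94.5 ± 6.99 FPKM and was not called (log2 change 0.10, 95% interval -0.05 to 0.25). Ciclev10010634m rose from 9.95, 9.50 and 11.6 FPKM in clementine to 25.2, 40.6 and 37.3 in kumquat, with every kumquat library higher (log2 change 1.62, SE 0.177, limma adjusted p = 1.88e-04). Ciclev10008268m rose from 16.7 ± 0.562 to 22.5 ± 0.170 FPKM (limma adjusted p = 0.00181). Ciclev10008565m had 2.81 ± 0.771 FPKM in clementine and was listed at 0 in kumquat. It had passed the filter through clementine alone, so it had to differ. Its locus name is that of Ciclev10008398m, and with this pair summed the level was called lower (log2 change -1.49, limma adjusted p = 5.21e-06). Ciclev10008450m was not called. The makeup of the name differed as well: Ciclev10008369m and Ciclev10008384m held 43.0% and 38.6% of the sum in clementine and 12.8% and 20.4% in kumquat, where Ciclev10008396m held the most, 27.1%.

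**Figure D3:**
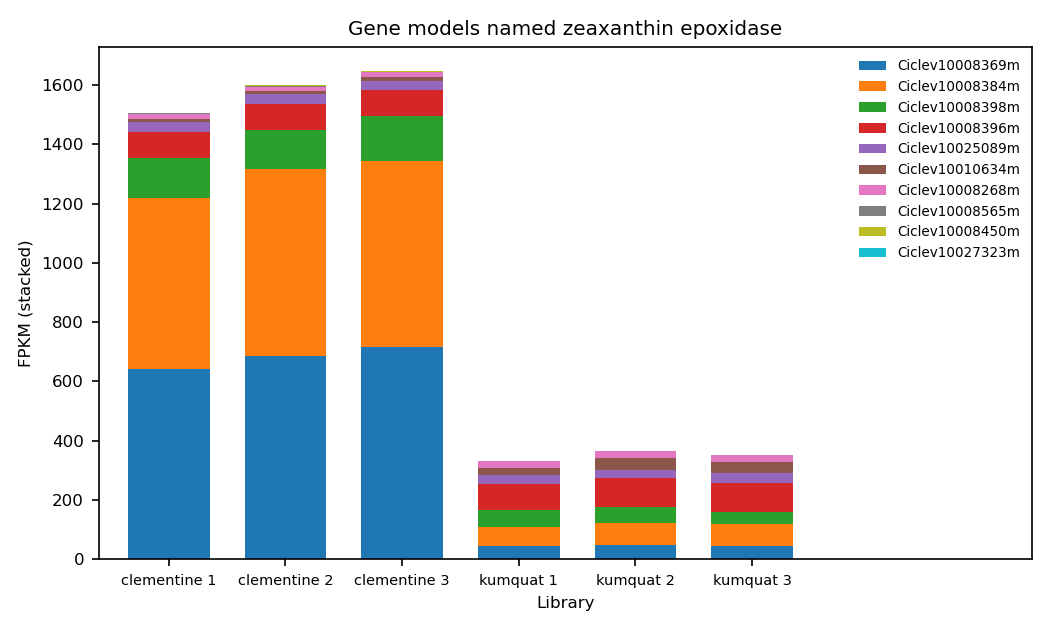
Stacked FPKM (y axis) of the 10 models named zeaxanthin epoxidase in each of the 6 libraries, one colour per model. The clementine bars reach 1506 to 1646 and the kumquat bars 332 to 365, and the gap is made by the lowest 3 layers, Ciclev10008369m, Ciclev10008384m and Ciclev10008398m.

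Violaxanthin de-epoxidase had 2 models. Ciclev10019925m stood at 9.10, 9.75 and 9.85 FPKM in clementine and at 6.81, 6.90 and 7.5 in kumquat. The groups did not overlap and the model was called lower (log2 change -0.39, SE 0.108, limma adjusted p = 0.0169). This call was lost without clementine replicate 2 (limma adjusted p = 0.0571), clementine replicate 3 (0.0595) or kumquat replicate 2 (0.0506). Ciclev10025312m overlapped between species at 5.84 ± 0.725 and 5.43 ± 0.701 FPKM and was not called.

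**Figure D4:**
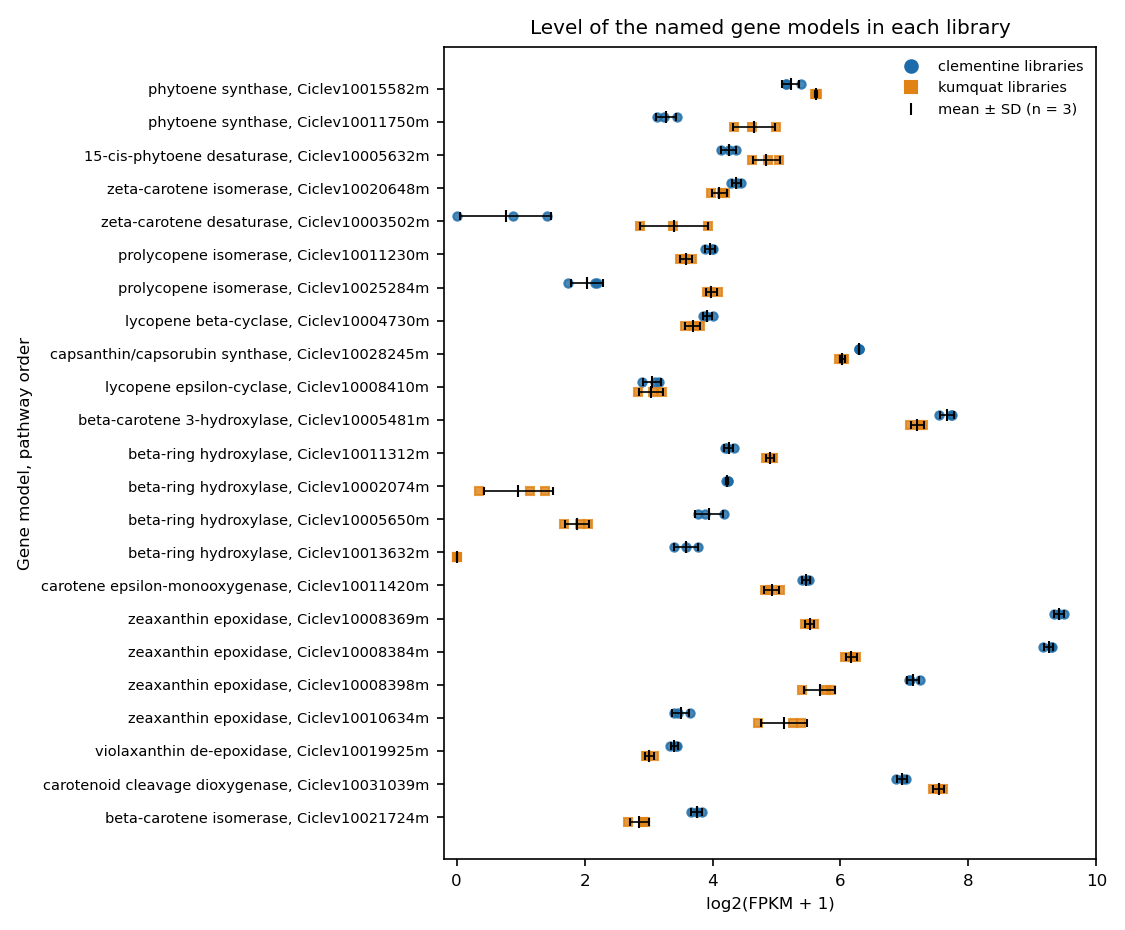
Level of 23 carotenoid models as log2(FPKM + 1) (x axis) in each clementine library (circles) and kumquat library (squares), with mean ± SD (n = 3), in pathway order from the top. Phytoene synthase models lie to the right in kumquat, most hydroxylase and epoxidase models to the left, and lycopene epsilon-cyclase overlaps.

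Among the models named carotenoid cleavage dioxygenase, 1 held most of the transcript level. Carotenoid cleavage dioxygenases cut the chain of carotenoids and so make volatile and coloured fragments. Ciclev10031039m stood at 129, 125 and 116 FPKM in clementine and at 194, 186 and 174 in kumquat. All kumquat libraries were higher, at 1.5 times the clementine level (log2 change 0.58, SE 0.0646, limma adjusted p = 2.04e-04). It held 89.8% of the summed level of the 4 models of its name in clementine and 95.7% in kumquat. Ciclev10031014m of the same name was lower, at 10.8 ± 0.666 and 4.99 ± 0.531 FPKM (log2 change -0.99, limma adjusted p = 3.89e-04), and Ciclev10031690m was not called. The sum of the name was 137 ± 6.09 FPKM in clementine and 193 ± 10.9 in kumquat.

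Beta-carotene isomerase, known as D27, and the 9-cis-beta-carotene 9',10'-cleaving dioxygenase, known as CCD7, take beta-carotene towards strigolactones, hormones of shoot branching and root symbiosis. The isomerase model Ciclev10021724m stood at 13.3, 11.7 and 12.5 FPKM in clementine and at 5.41, 6.67 and 6.66 in kumquat. The groups were well apart, and the clementine level was 2.01 times that of kumquat (log2 change -0.90, SE 0.122, limma adjusted p = 5.54e-04). The dioxygenase model Ciclev10027500m was listed at 0 in all kumquat libraries and stood at 0, 0.07 and 0 FPKM in clementine, so no comparison was made.

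**Figure D5:**
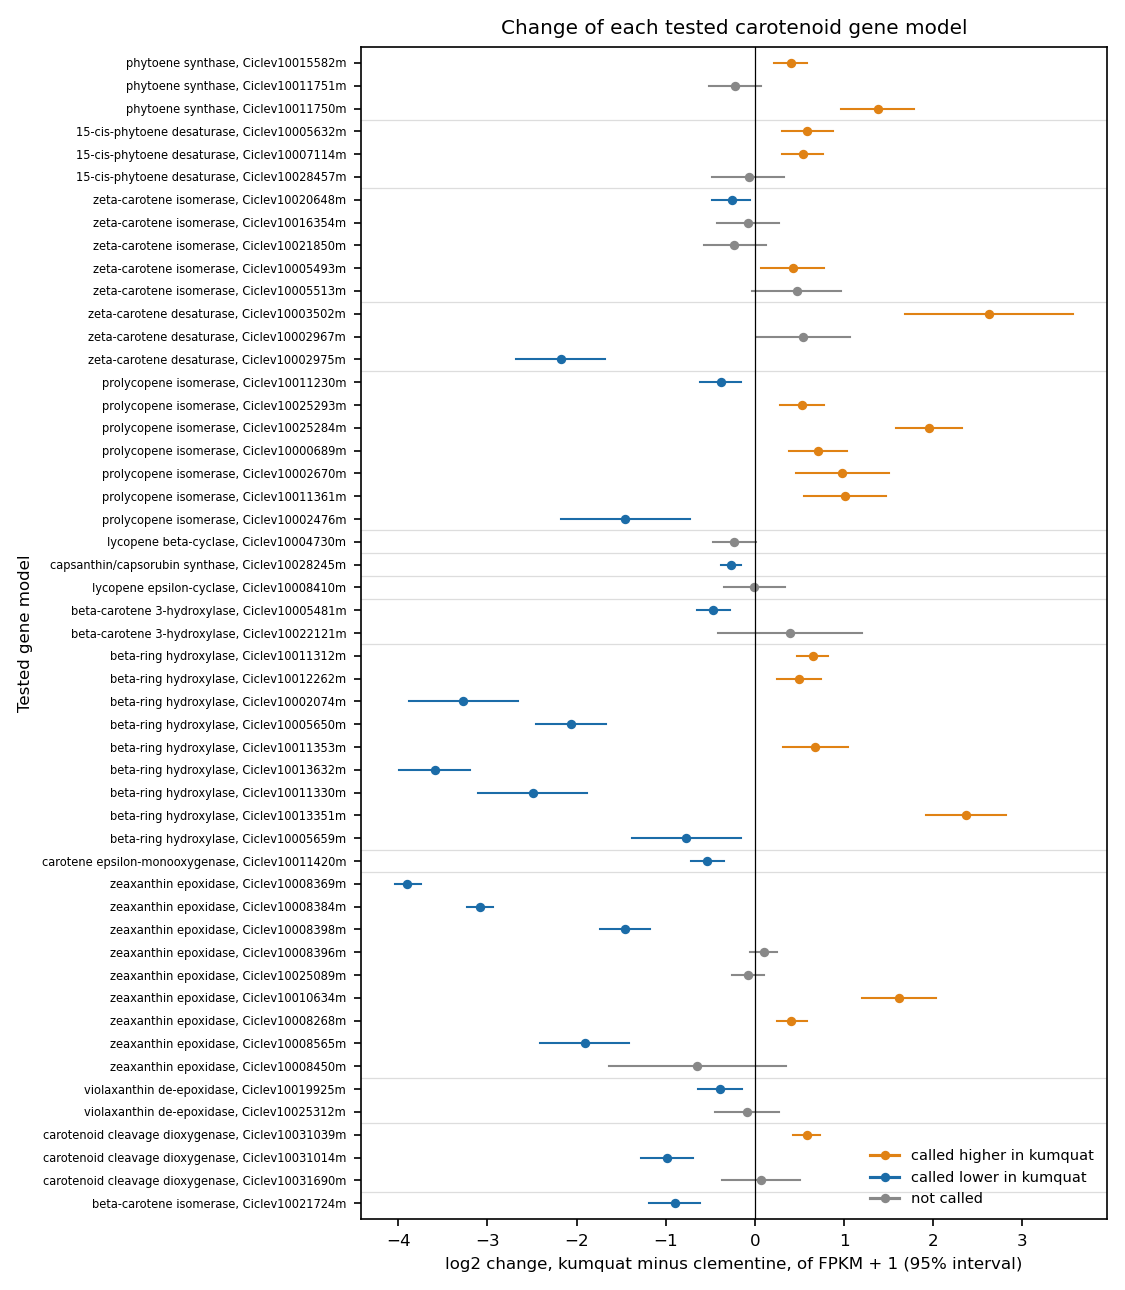
Log2 change, kumquat minus clementine, of FPKM + 1 (x axis) with its 95% interval for the 51 tested carotenoid models, grouped by KEGG name in pathway order (orange called higher, blue called lower, grey not called). Phytoene synthase, phytoene desaturase and prolycopene isomerase models lie mostly to the right of 0, while the zeaxanthin epoxidase models range from -3.90 to 1.62.

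The precursor pathway that feeds carotenoid synthesis, from 1-deoxy-D-xylulose-5-phosphate to geranylgeranyl diphosphate, was examined as a list of 32 models. Of 26 tested, 12 were higher, 3 lower and 11 not called. The called share was 57.7%, beside 57.1% of all tested models, and the median log2 change was 0.27. Geranylgeranyl diphosphate synthase makes the direct substrate of phytoene synthase. Its most abundant model, Ciclev10012011m, stood at 141, 172 and 166 FPKM in clementine and 214, 274 and 260.3 in kumquat, without overlap (log2 change 0.63, limma adjusted p = 0.00203). Ciclev10008936m of the same name rose from 1.78 ± 0.488 to 40.5 ± 6.77 FPKM (log2 change 3.90, limma adjusted p = 2.39e-06), and Ciclev10012280m fell from 18.5 ± 1.56 to 8.85 ± 1.23. Isopentenyl-diphosphate isomerase, which balances the 5-carbon building blocks, rose in Ciclev10012312m from 302 ± 18.4 to 379 ± 7.09 FPKM (limma adjusted p = 0.00199).

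Within the precursor list, the listed levels of copies also moved against each other. The hydroxymethylbutenyl diphosphate synthase models Ciclev10027884m and Ciclev10027881m share a protein match, so reads may have been split between them. The first rose from 161 ± 9.04 to 244 ± 11.4 FPKM and the second fell from 162 ± 10 to 106 ± 4.02. The reductoisomerase model Ciclev10020004m, the second enzyme of the route, fell from 207 ± 4.61 to 143 ± 5.17 FPKM (log2 change -0.53, limma adjusted p = 8.40e-05). For 1-deoxy-D-xylulose-5-phosphate synthase, the entry enzyme, the most abundant model Ciclev10024949m was not called at 179.6 ± 2.45 and 172 ± 4.40 FPKM.

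Downstream of the xanthophylls, abscisic acid is made from cleaved epoxycarotenoids. A list of 35 models of its synthesis and breakdown had 20 tested, 7 higher, 5 lower and 8 not called, a called share of 60.0% beside 57.1% of all tested models (29.9% higher, 27.1% lower). Its median log2 change was 0.22, beside 0.04. The 9-cis-epoxycarotenoid dioxygenases, which make the cut that commits carotenoids to abscisic acid, were divided, with 2 of 4 tested models higher and 1 lower. Ciclev10028113m fell from 34.2, 31.9 and 31.6 FPKM to 16.4, 12.4 and 12.8 (log2 change -1.18, limma adjusted p = 9.45e-05). Ciclev10031003m rose from 9.58, 8.83 and 8.92 FPKM to 21.0, 20.7 and 19.3 (log2 change 1.08, limma adjusted p = 4.00e-05), and Ciclev10014639m overlapped and was not called. In neither of the called models did the species overlap. The hydroxylases that break the hormone down were divided in the same numbers, but the changes differed in size. Ciclev10011655m rose from 7.85 ± 2.56 FPKM in clementine to 87.6 ± 0.558 in kumquat (log2 change 3.37, limma adjusted p = 8.13e-06). This was the largest change among the tested models of the list. Ciclev10028346m rose from 3.87 ± 0.467 to 7.13 ± 0.209 FPKM. The lower model, Ciclev10001043m, fell from 26.8, 26.4 and 24.6 FPKM to 10.6, 9.68 and 9.75 (log2 change -1.29, limma adjusted p = 1.23e-05).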

How the data were processed

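The authors deposited 1 table of FPKM per gene model, per the file headers, with 2 decimals and 6 library columns. HISAT, StringTie and DESeq2 are named without versions or roles, per the submitters' processing notes. Genome build and gene annotation: not given in the sources used here. FPKM are not counts, so no count model was run and no counting error can be given.

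A model was tested when 3 or more libraries held 1 FPKM or more, which left 22050. Analysis was on log2(FPKM + 1), and folds on that scale understate changes of low models. limma 3.58.1 in R 4.3.3 was used with a mean-dependent prior variance, 3 libraries against 3 and no covariate, two-sided, with Benjamini-Hochberg adjustment over all tested models. Named models were the most abundant tested model of each KEGG name, every model called at 2-fold or more with at least 10 FPKM in the higher species, and every model that was alone under its name, 24 in all. Other models are given because a sum or a copy turns on them and were chosen after their values were seen, as were those of the precursor and abscisic acid lists. The members and lists were chosen with earlier results of these data known. A protein match ties 33 of the 71 models to RefSeq genes.

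On simulated data with 200 of 22050 models changed, 76.0% of 50 changes of 0.5 on the log2 scale were called and 100.0% of those of 1, 2 and 3. Of 196 calls, 8 were false. The changed models were drawn from those above a low mean level, and noise was normal with an SD smoothed over the mean. These rates therefore do not describe low models, nor data where 57.1% of tested models are called. Alternatives were another pseudocount, other filters, median scaling, no trend, a replicate block, each library left out, and models summed by protein match. Sums by locus name and the narrower member sets were added after the data were seen.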

Additional observations from a re-analysis of the deposited data

How the results depend on the processing

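Of the results on counts of calls and summed levels, 289 recomputed values stayed within 1.5 times or within the replicate spread, and no called value changed sign. The summed log2 ratio of lycopene epsilon-cyclase, at -0.00, ranged from -0.11 to 0.10 with a library left out. The 19 lower carotenoid models became 12, 11 and 11 without clementine replicate 1, 2 or 3, where 6 models each time no longer met the filter of 3 libraries. Leaving out any 1 library gave 28 to 37 called, 16 to 18 higher and 11 to 19 lower. Over all models this range was 10046 to 11310. With 1 KEGG name per model and the doubtful zeaxanthin epoxidases left out, 11 were lower. Counting zeaxanthin epoxidase under any KEGG name changed its summed log2 ratio from -2.18 to -1.75, since more models enter. A filter of 5 FPKM left 29 called, sums by locus name 32 and median scaling 36, which moved the median of all models from 0.0414 to 0.007 and their calls from 6602 higher and 5980 lower to 6265 and 6298. Among named models, 309 recomputed changes kept their side of the threshold and 10 lost a call, in Ciclev10020648m, Ciclev10011230m and Ciclev10019925m. Ciclev10013632m had no value in 3 more, each without a clementine replicate, because it no longer met the filter.

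Replicate numbers did not clearly pair the libraries: deviations of the same number correlated at 0.119, 0.0424 and 0.0657, although each library correlated best with its own number, a hint from the data and not the design. With the replicate block, 36 carotenoid models were called (18 higher, 18 lower), 14 of the precursor list, 12 of the abscisic acid list and 12944 of all models. The count-model alternative was not run because the values are FPKM. Depth is unknown, so differences of models near 1 FPKM are the least certain.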

Other observations

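A further 15 models carried a carotenoid enzyme only as a later KEGG name and were left out of the 71. Of these, 13 were named salicylate hydroxylase first and zeaxanthin epoxidase later, a name pair shared by related flavin-dependent enzymes. Of these 13, 10 were tested, 5 were higher, 1 lower and 4 not called, beside a background of 29.9% higher and 27.1% lower over all tested models. Among these calls, Ciclev10028549m (higher) and Ciclev10021051m (lower) had passed the filter only through the species where they were high, so they had to differ. The difference of the 13 from the models named zeaxanthin epoxidase first was not tested. Ciclev10025686m stood at 1.75, 1.95 and 0.68 FPKM in clementine and at 35.4, 41.4 and 38.5 in kumquat, without overlap (log2 change 4.04, limma adjusted p = 5.47e-06). Ciclev10028861m stood at 1.48, 0.54 and 0.76 FPKM in clementine and at 14.9, 13.3 and 10.3 in kumquat (log2 change 2.86, limma adjusted p = 3.71e-05). Ciclev10028549m stood at 0.693 ± 0.218 and 9.53 ± 0.438 FPKM (SD, n = 3 each). All named here were chosen after their values were seen.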
